A study of Bos taurus with 8 samples.

Results

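RAB proteins are small GTPases that direct vesicle traffic, and 60 of the 21258 features measured in these cattle embryos carry a gene symbol made of RAB followed by a digit. The members were taken by that symbol alone and not by any measured value, though earlier results of these data were known at the time. Of the 60, 52 are RAB GTPases and 8 are partner proteins named after a RAB: RAB3GAP1, RAB3GAP2, RAB3IP, RAB3IL1 and RAB11FIP1 to RAB11FIP4. The protein description in the files names a Rab for 57 members and not for RAB8B, RAB11A and RAB42. The description of RAB8B is a reverse transcriptase-like protein, so its values are uncertain. The members lie on 28 chromosomes of the cattle build UMD3.1, and 4 are on the X chromosome.

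A RAB protein cycles between a GDP-bound form held in the cytosol and a GTP-bound form on a membrane, where it recruits effectors such as tethers, motors and coats. Guanine nucleotide exchange factors load GTP, GTPase-activating proteins end the active state, and a prenyl group added by RAB geranylgeranyl transferase anchors the protein in the membrane. Each RAB marks particular membranes: RAB1 and RAB2 act between the endoplasmic reticulum and the Golgi, RAB5 on early endosomes, RAB7 on late endosomes, RAB11 on recycling endosomes, and RAB3 and RAB27 on secretory vesicles. Oocytes and early embryos rely on this traffic for exocytosis of cortical granules, membrane supply at cleavage and turnover of maternal proteins.

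RNA was sequenced from pools of 8 Holstein embryos at the eight-cell stage. Embryos made by in vitro fertilisation (IVF) gave 3 libraries, clones made by somatic cell nuclear transfer (SCNT), in which an egg receives a body cell's nucleus, gave 3, and clones overexpressing KDM4E, a demethylase of lysine 9 on histone H3, gave 2 (KDM4E-SCNT). The labels do not give the donor cells, the way KDM4E was overexpressed or the hours of development. Nothing in them says that replicate pools are separate batches of embryos, so the p-values cover the spread among these 8 libraries only, and that spread may be technical. In such pooled RNA, fewer cells of a type and less RNA per cell cannot be told apart.

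LOC524768, taken here as KDM4E, had 88.3 to 109 FPKM (fragments scaled by transcript length and library size) in IVF, 25.4 to 33.9 in SCNT, and 102 and 206 in KDM4E-SCNT. Total FPKM per library was 702294 to 844175, and 10975 to 13050 features reached 1 FPKM. Depth is unknown, since the files hold no counts. The summed level of 17 oocyte and early embryo genes was 29953 to 36134 FPKM in IVF, 4974 to 10231 in SCNT, and 22143 and 26605 in KDM4E-SCNT, and none of the 17 was at 0 in all libraries of a group. All 17 were called higher in IVF than in SCNT, and 16 of 17 higher in KDM4E-SCNT than in SCNT. Ribosomal protein genes took 1.61% to 1.73% of FPKM in IVF, 9.73% to 12.1% in SCNT, and 5.46% and 3.63% in KDM4E-SCNT. Markers of fibroblasts summed to 27.6 to 49.4 FPKM in IVF, 120 to 187 in SCNT, and 89.0 and 380 in KDM4E-SCNT, with COL6A1, COL6A2 and TAGLN at 0 in every IVF library, COL6A2 and THY1 in every SCNT library, and PDGFRB in both KDM4E-SCNT libraries. Cumulus and granulosa markers summed to 97.5 to 162, 17.1 to 24.8, and 48.3 and 96.9 FPKM in the same order of groups, sperm markers to 70.2 to 92.7, 25.9 to 41.8, and 48.0 and 56.1, and blood markers to 17.3 to 26.4, 73.0 to 143, and 53.4 and 81.2. In the blood sum the hemoglobin genes HBA and HBA1, with nearly equal values, made up most of the SCNT level, while CD3E, PTPRC and CD14 were called higher in IVF. In the sperm sum LDHC made up most of the IVF level, while CRISP2 was called lower in IVF. Of 12 fibroblast markers tested, 5 were called lower in IVF than in SCNT, 1 (FN1) higher and 6 in neither direction. HAS2 and STAR made up most of the cumulus and granulosa sum in IVF, while TNFAIP6 was called lower in IVF. These sums move with the groups as many of the RAB genes below do, and their part in the RAB differences was not tested.

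RAB11A, which directs recycling endosomes to the cell surface and the cleavage furrow, was the most abundant RAB in every library. It lies at chr10:12691046-12710296. Its level was 610, 842 and 859 FPKM in the IVF libraries, 819, 919 and 893 in SCNT, and 1277 and 1164 in KDM4E-SCNT. The IVF and SCNT libraries overlapped, and both KDM4E-SCNT libraries were above all 6 others. The difference between IVF and SCNT was -0.20 ± 0.23 on the log2(FPKM + 1) scale (standard error, adjusted p = 0.466), and its sign turned positive, to 0.45, after quantile normalization. After median-ratio scaling it was -0.65 and passed (adjusted p = 0.0376, range over the alternatives 0.0376 to 0.99). KDM4E-SCNT differed from SCNT by 0.48 ± 0.26 (adjusted p = 0.169), so the gap between those groups did not pass the test. After quantile normalization that difference was 0.96 and passed (adjusted p = 0.0212, range 0.0212 to 0.997).

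The order below RAB11A differed between groups. Behind it in IVF came RAB10 with 212 ± 33.7 FPKM (SD, n = 3), RAB1A with 136 ± 9.57 and RAB2B with 122 ± 29.0. The levels of RAB1A and RAB2B in IVF were closer together than their spread, as were those of RAB2B and RAB2A, at 113 ± 27.7. In SCNT the next was RAB18 with 384 ± 82.8 FPKM, then RAB1A with 261 ± 9.52, and RAB10 stood at 65.0 ± 7.12. RAB2B and RAB10 in SCNT, at 65.1 ± 6.64 and 65.0 ± 7.12 FPKM, did not differ beyond their spread. In KDM4E-SCNT, RAB18, RAB1A and RAB10 followed RAB11A with means of 194, 181 and 172 FPKM, close together against an SD of 142 for RAB18 (n = 2).

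**Figure D1:**
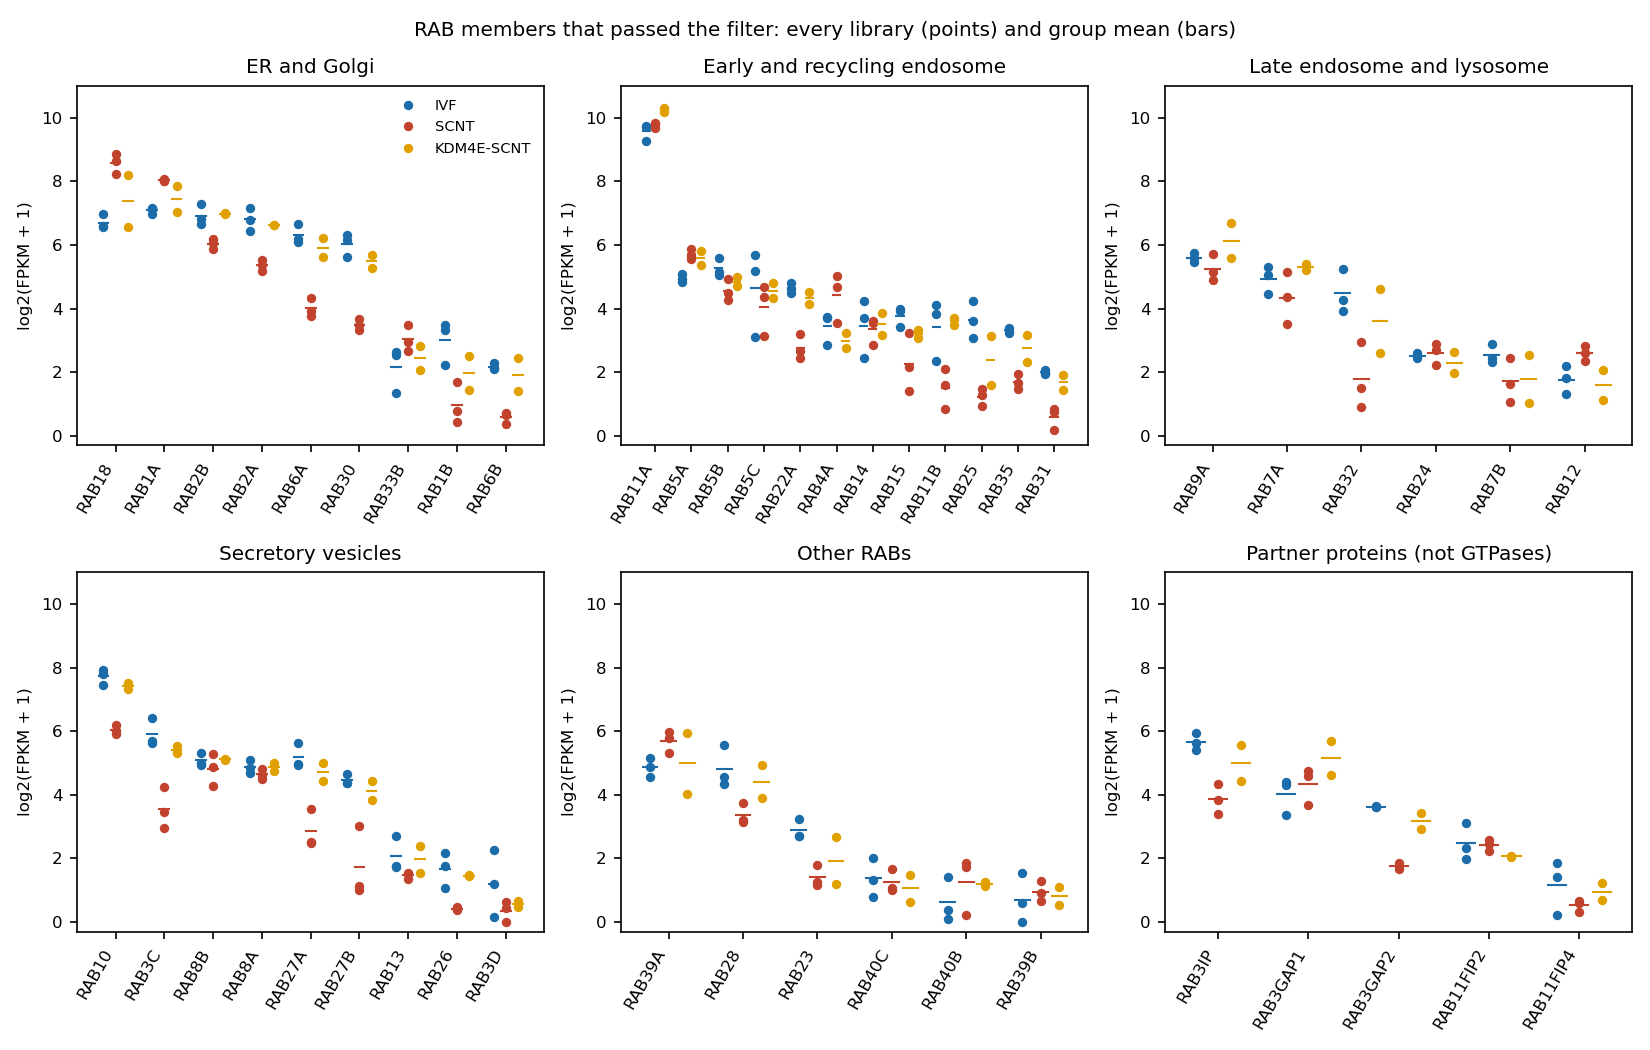
Level of each tested member as log2(FPKM + 1), in 6 panels by role; each point is 1 library, coloured by group (IVF, SCNT, KDM4E-SCNT), and each bar is a group mean. RAB11A is the highest member in all 8 libraries, RAB18 and RAB1A sit lower in IVF than in SCNT, and RAB10, RAB6A, RAB30 and the RAB27 genes sit higher in IVF.

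Summed over the 52 GTPases, the RAB level was 2086, 2325 and 2146 FPKM in IVF, 2068, 2015 and 2184 in SCNT, and 2766 and 2502 in KDM4E-SCNT. The sums of IVF and SCNT overlapped. As a share of all FPKM, the GTPases took 0.281% to 0.331% in IVF, 0.239% to 0.269% in SCNT, and 0.344% and 0.332% in KDM4E-SCNT. RAB11A alone made up 29.3% to 40.0% of the GTPase sum in IVF, 39.6% to 45.6% in SCNT, and 46.2% and 46.5% in KDM4E-SCNT. RAB11A, RAB18, RAB1A, RAB10, RAB2B and RAB2A were the 6 GTPases with the highest mean over the 8 libraries. Together they held a larger share of the sum in the clones than in IVF. That share was 64.1% to 68.0% in IVF, 79.8% to 81.8% in SCNT, and 79.2% and 71.6% in KDM4E-SCNT.

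The groups differed most in the share held by RABs of secretory vesicles and exocytosis, such as RAB10, RAB3C and the RAB27 pair. That share of the GTPase sum was 19.7%, 19.5% and 15.9% in the IVF libraries, 6.52%, 8.59% and 5.38% in SCNT, and 10.9% and 13.9% in KDM4E-SCNT. The 3 groups did not overlap, with KDM4E-SCNT between the others. RABs of the endoplasmic reticulum and Golgi held 27.0% to 31.3% in IVF and 34.1% to 39.5% in SCNT, where RAB18 and RAB1A made up most of that share, and 30.7% and 23.3% in KDM4E-SCNT. These shares are descriptions and carry no test.

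**Figure D2:**
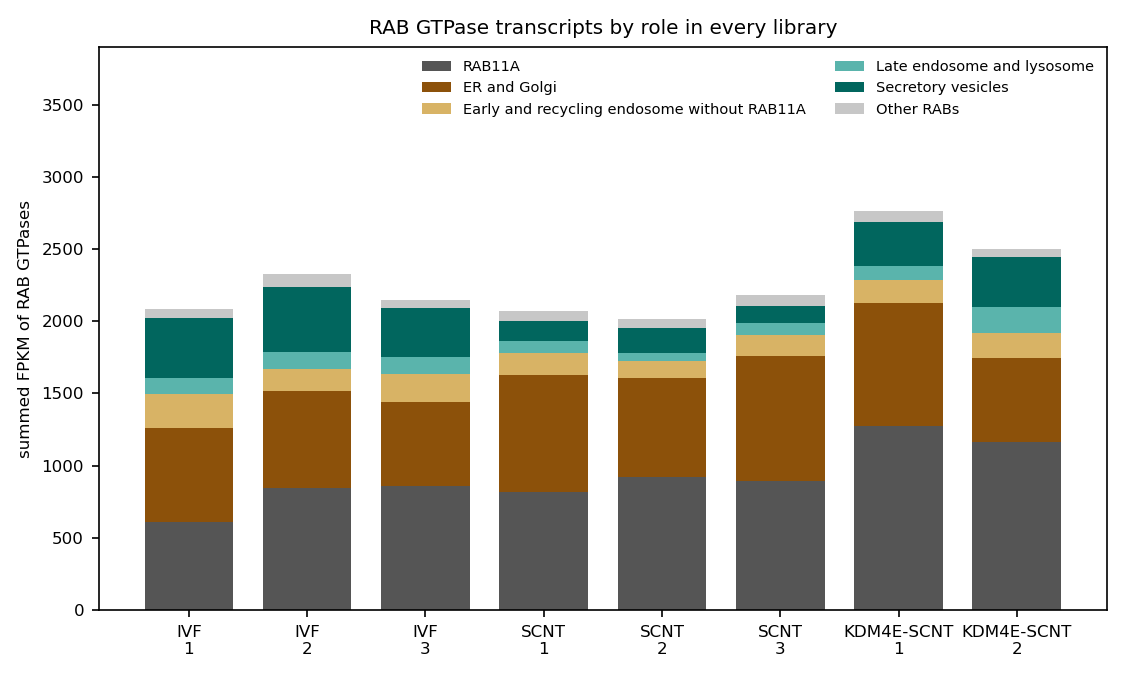
Summed FPKM of the 52 RAB GTPases as stacked bars, 1 bar per library, split by role with RAB11A shown apart from the other endosomal RABs. The secretory part is tallest in IVF (15.9% to 19.7% of a bar) and shortest in SCNT (5.38% to 8.59%).

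The first comparison set fertilised embryos against clones. Of the 60 members, 47 reached 1 FPKM in at least 2 libraries and were tested, and 13 did not, with means over the 8 libraries between 0.0225 and 0.466 FPKM and no single value above 1.71. The 13 are RAB3A, RAB3B, RAB9B, RAB19, RAB20, RAB29, RAB33A, RAB37, RAB38, RAB42, RAB3IL1, RAB11FIP1 and RAB11FIP3. Of the 47 tested, 22 were called higher in IVF than in SCNT, 3 lower and 22 in neither direction. A member was called at an adjusted p under 0.05, from a moderated linear model (limma) on log2(FPKM + 1) with Benjamini-Hochberg adjustment over all 14839 features tested. The share of members called, 53.2%, is near the 58.5% called over all features, so the number of calls is no result about the RABs. By direction, 46.8% of members were called higher against 34.9% of all features, and 6.38% lower against 23.6%. The median difference was 0.84 over the 47 members and 0.39 over all features.

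The balance of directions depends on the scaling. After median-ratio scaling, which brings the median difference of all features to 0.10, the members' median was 0.45, with 21 called higher and 8 lower, and higher calls made up 48.9% of all calls over the features in place of 59.7%. Every library of IVF was above every library of SCNT for 24 of the 47 members, where 38.5% of all features did so, and below for 6, where 25.9% did so.

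**Figure D3:**
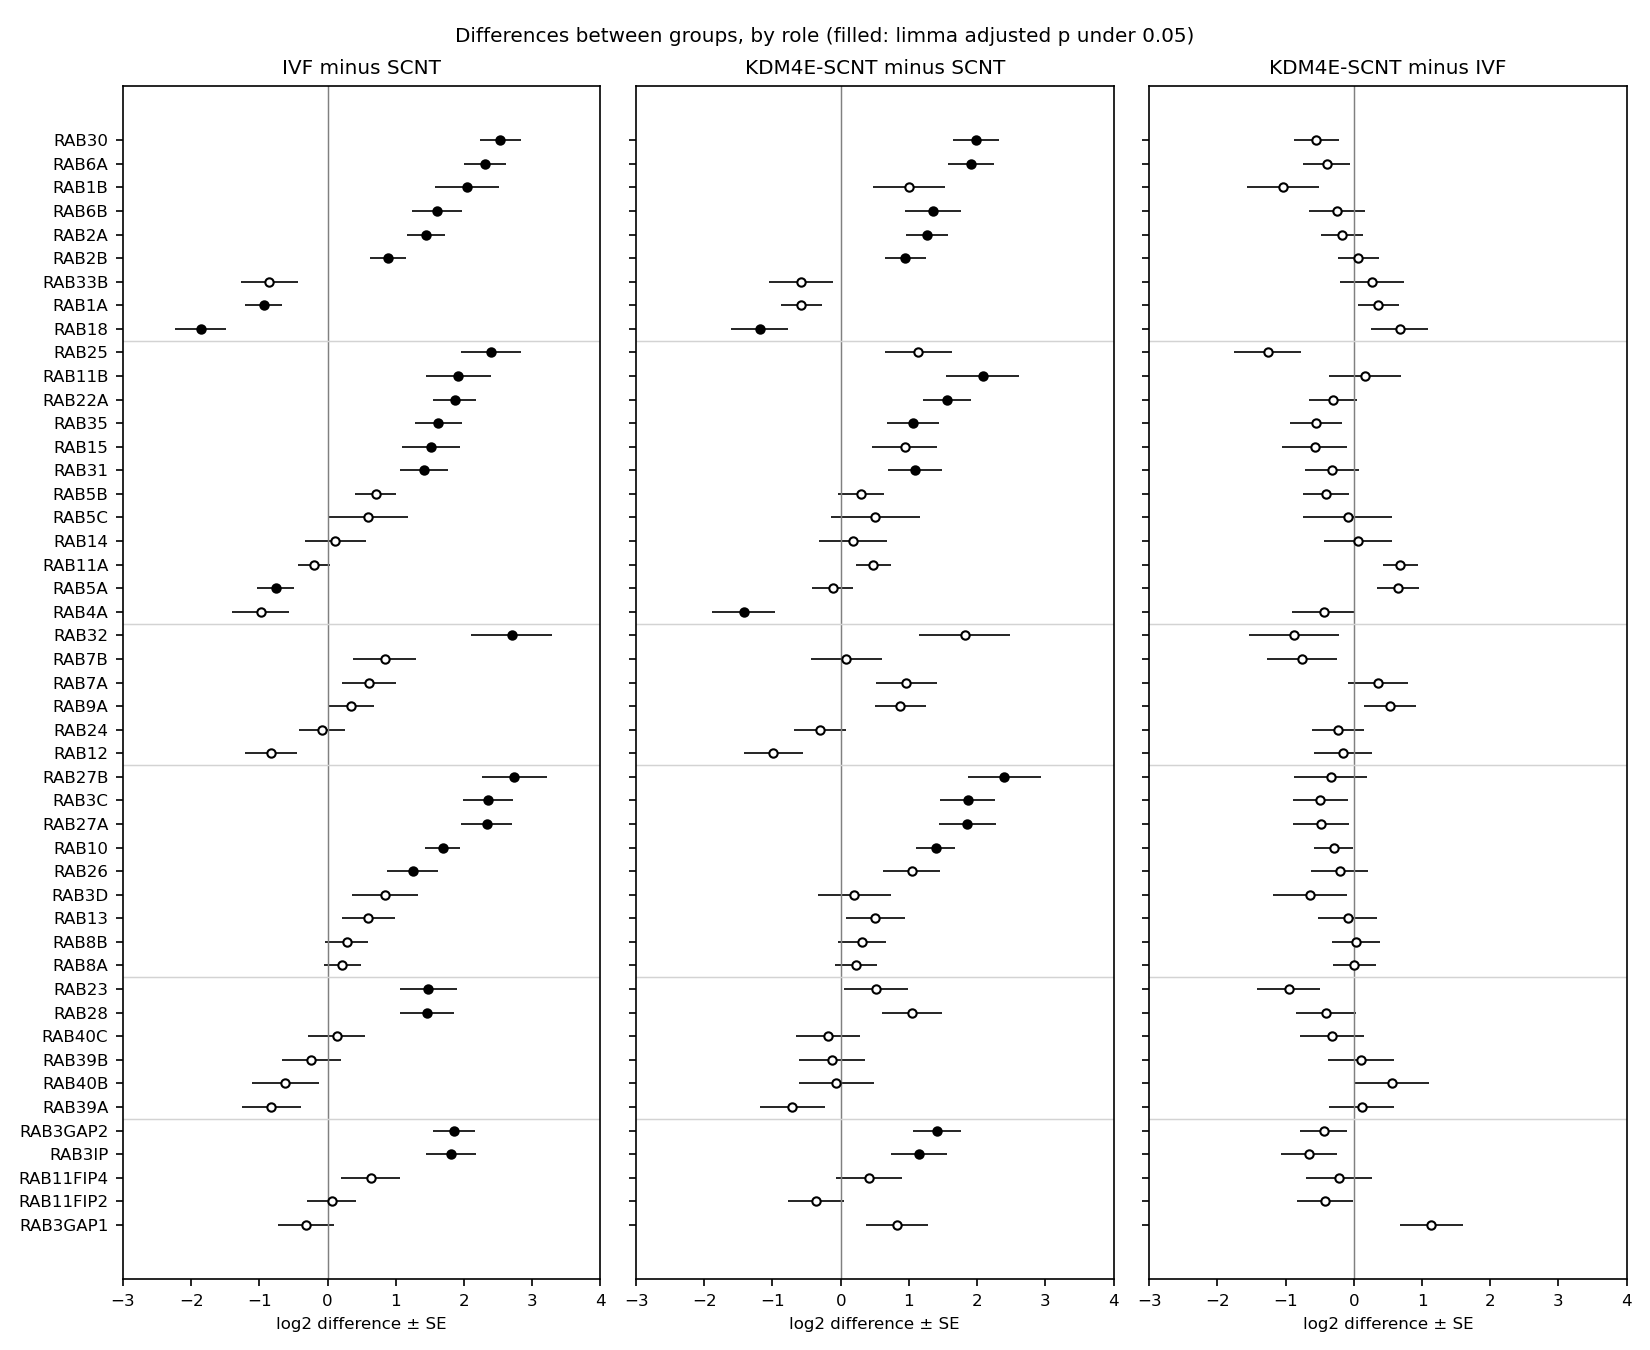
Log2 difference of each of the 47 tested members for the 3 comparisons, 1 panel each, with the group named first minus the group named second and bars of 1 standard error; members are grouped by role and filled points passed the test. RAB27B, RAB32 and RAB30 reach furthest right in the first panel and RAB18 furthest left, and the third panel has no filled point.

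RABs of the endoplasmic reticulum and Golgi were called in both directions. Of 9 tested, 6 (66.7%) were called higher in IVF and 2 (22.2%) lower, against 34.9% and 23.6% of all features. RAB33B, with a difference of -0.86 ± 0.42 (adjusted p = 0.0927), was not called. RAB33B was called lower after median-ratio scaling, by -1.22 (adjusted p = 0.025), and after quantile normalization, by -1.14 (adjusted p = 0.0376), in a range of 0.025 to 0.378. The median of the 9 was 1.44. RAB6B, among the 6 called higher, had 0.29 to 0.65 FPKM in SCNT and passed the filter only through the other groups. RAB18, which sits on lipid droplets and the endoplasmic reticulum, lies at chr13:37303894-37331999 and went the other way. It had 95.7, 125 and 93.1 FPKM in IVF and 395, 297 and 462 in SCNT. No IVF library reached the lowest SCNT library. RAB18 was lower in IVF by -1.86 ± 0.37 (3.63-fold, adjusted p = 0.00102).

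RAB1A, which carries traffic from the endoplasmic reticulum to the Golgi, had 125, 139 and 143 FPKM in IVF and 272, 255 and 255 in SCNT. The groups were apart, and the difference of -0.94 ± 0.27 (adjusted p = 0.00958) passed the test. After quantile normalization it was -0.50, with an adjusted p of 0.13, and over all 21 alternatives that p ran from 0.00138 to 0.13. RAB1B, its close paralogue, had 10.3, 3.66 and 9.01 FPKM in IVF and 0.73, 2.21 and 0.36 in SCNT. It was called in the opposite direction, 2.04 ± 0.47 higher in IVF (adjusted p = 0.00243). In the main fit no other tested paralogue pair had 2 calls in opposite directions. RAB5B, at 0.70 ± 0.30 (adjusted p = 0.0588), was not called there, with every IVF library above every SCNT library. It was called higher, opposite to RAB5A, with the stricter filter and without IVF replicate 2 or SCNT replicate 1, each in turn.

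RAB6A, the Golgi RAB of retrograde transport, had 68.2, 99.6 and 71.4 FPKM in IVF and 19.3, 14.1 and 12.6 in SCNT. The lowest IVF library was above the highest SCNT library. The difference was 2.31 ± 0.30, a 4.95-fold gap (adjusted p = 4.8e-05). RAB30, a Golgi RAB, had 78.3, 48.0 and 71.0 FPKM in IVF and 11.8, 9.11 and 10.2 in SCNT. It had the smallest adjusted p of all members, 2.1e-05, with a difference of 2.53 ± 0.30.

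RAB2A and RAB2B, which act at the Golgi and in traffic towards lysosomes, were both higher in IVF. RAB2A had 110, 142 and 86.9 FPKM in IVF and 35.3, 45.0 and 40.6 in SCNT, a difference of 1.44 ± 0.27 (adjusted p = 0.000687). RAB2B had 155, 112 and 99.7 FPKM in IVF and 65.6, 58.2 and 71.4 in SCNT, a difference of 0.88 ± 0.27 (adjusted p = 0.0126). The libraries of the 2 groups were apart for both genes. The RAB2B call ended after median-ratio scaling (0.44, adjusted p = 0.184) and without IVF replicate 1 (0.70, adjusted p = 0.0528), and its adjusted p lay between 0.00393 and 0.184 across alternatives.

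Of 9 tested RABs of secretory vesicles and exocytosis, 5 (55.6%) were called higher in IVF and none lower, against 34.9% and 23.6% of all features. Their median was 1.25. RAB27B, at chr24:54544871-54715264, had the largest difference of all members on the log2(FPKM + 1) scale, though that of RAB32, 2.70 ± 0.59, was within its error. It had 19.7, 24.5 and 19.6 FPKM in IVF and 1.2, 7.2 and 1.03 in SCNT. SCNT replicate 2 stood above the other SCNT libraries and still below every IVF library. RAB27B was 2.74 ± 0.48 higher in IVF (6.67-fold, adjusted p = 0.000368).

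RAB27A, which with RAB27B docks secretory granules at the plasma membrane, had 30.5, 49.0 and 29.5 FPKM in IVF and 4.69, 10.8 and 4.57 in SCNT. RAB3C, a RAB of regulated exocytosis, had 50.6, 84.8 and 48.4 FPKM in IVF and 6.84, 17.8 and 10.1 in SCNT. Neither gene overlapped between the groups, and in both the highest SCNT value was in replicate 2. The differences were 2.33 ± 0.37 for RAB27A (adjusted p = 0.00019) and 2.35 ± 0.36 for RAB3C (adjusted p = 0.000147). The span of RAB3C overlaps another feature, and the files do not state strand, so its reads may be shared.

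RAB10, which moves vesicles from the Golgi to the cell surface, was the most abundant of this group. It had 242, 220 and 176 FPKM in IVF and 63.5, 72.8 and 58.8 in SCNT, a difference of 1.69 ± 0.25 (3.22-fold, adjusted p = 0.000127). All 3 IVF libraries had more than all 3 SCNT libraries. RAB26, a low-level vesicle RAB, was the remaining call, at 1.25 ± 0.37 (adjusted p = 0.012). It had 0.31 to 0.39 FPKM in SCNT, under the pseudocount of 1, and passed the filter only through the other groups, where it was higher. The 4 secretory RABs not called were RAB8A (0.22 ± 0.28), RAB8B (0.28 ± 0.31), RAB13 (0.60 ± 0.39) and RAB3D (0.85 ± 0.48). Without IVF replicate 2, RAB3D was called at 1.37 (adjusted p = 0.0188, range 0.0188 to 0.328).

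Of 12 tested RABs of early and recycling endosomes, 6 (50%) were called higher in IVF and 1 (8.33%) lower, against 34.9% and 23.6% of all features. Their median was 1.06. RAB25, an epithelial relative of RAB11, had 17.8, 7.43 and 11.1 FPKM in IVF and 1.43, 0.94 and 1.77 in SCNT. Its groups were apart, by 2.40 ± 0.44 (adjusted p = 0.000549). RAB11B, the minor RAB11 of these embryos, had 13.3, 4.12 and 16.2 FPKM in IVF and 3.32, 0.79 and 2.04 in SCNT. IVF replicate 2 came close to SCNT, and the difference of 1.92 passed the test (adjusted p = 0.00397). The other 4 that were higher in IVF were RAB22A (1.86 ± 0.31), RAB35 (1.62 ± 0.34), RAB15 (1.51 ± 0.43) and RAB31 (1.41 ± 0.35). RAB31 had 0.14 to 0.79 FPKM in SCNT and passed the filter only through the other groups, where it was higher.

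RAB5A, which controls fusion of early endosomes, was the 1 endosomal member called lower. It had 27.6, 32.8 and 29.3 FPKM in IVF and 46.7, 49.8 and 58.2 in SCNT, with no overlap, and a difference of -0.76 ± 0.27 (adjusted p = 0.0284). The call ended with 1 total per library (adjusted p = 0.0924) and without IVF replicate 1, IVF replicate 3, SCNT replicate 2 or SCNT replicate 3, each in turn, and the adjusted p ran from 0.00321 to 0.104 over 21 alternatives. The files also hold features without a symbol that are described as parts of Rab-5A, so the reads of RAB5A may be split.

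RAB5C, the third RAB5, had 50.3, 7.63 and 35.5 FPKM in IVF and 24.9, 7.79 and 19.6 in SCNT. Replicate 2 was far below the others in both groups, and the difference of 0.60 ± 0.58 did not pass (adjusted p = 0.394). Without IVF replicate 2 it was 1.37 with an adjusted p of 0.0212, in a range of 0.0212 to 0.912 over its alternatives. RAB4A, a RAB of fast recycling, had 12.5, 12.2 and 6.22 FPKM in IVF and 31.5, 10.7 and 24.9 in SCNT. The groups overlapped through SCNT replicate 2, and -0.98 ± 0.42 was not called (adjusted p = 0.0577). Without SCNT replicate 2 the RAB4A difference was -1.42 with an adjusted p of 0.00997, and its range over the alternatives was 0.00952 to 0.223. With all libraries kept, RAB4A was called lower with the stricter filter and after median-ratio scaling, upper-quartile scaling and quantile normalization.

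Of 6 tested RABs of late endosomes and lysosomes, 1 (16.7%) was called higher in IVF and none lower, against 34.9% and 23.6% of all features. RAB32, which acts in the making of lysosome-related organelles, had 18.4, 37.2 and 14.1 FPKM in IVF and 0.87, 6.70 and 1.86 in SCNT. The groups were apart, by 2.70 ± 0.59 (adjusted p = 0.00189). RAB9A, which returns cargo from late endosomes to the Golgi and was the most abundant of this role, overlapped: 42.9, 47.6 and 53.4 FPKM in IVF against 34.4, 29.2 and 51.7 in SCNT (0.35 ± 0.34, adjusted p = 0.394). RAB7A, the late endosome RAB, ranged from 20.9 to 39.0 FPKM over the IVF libraries and from 10.5 to 34.4 over the SCNT libraries (0.61 ± 0.40, adjusted p = 0.205). Without SCNT replicate 1 its difference of 1.01 was called (adjusted p = 0.047, range 0.047 to 0.718). RAB12 was lower in every IVF library than in every SCNT library and was not called (-0.82 ± 0.38, adjusted p = 0.0784). It was called lower after median-ratio scaling (adjusted p = 0.0162), upper-quartile scaling (adjusted p = 0.038) and quantile normalization (adjusted p = 0.0194).

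In the remaining group of 6 RABs with other or less settled roles, RAB28 (1.45 ± 0.40, adjusted p = 0.00706) and RAB23 (1.47 ± 0.42, adjusted p = 0.00891), a regulator of hedgehog signalling and cilia, were called higher in IVF. These 2 are 33.3% of the group, against 34.9% called higher over all features. RAB39A, the most abundant of the 6, had 34.7, 28.6 and 22.7 FPKM in IVF and 54.1, 39.2 and 61.7 in SCNT. Every SCNT library was above every IVF library, and -0.82 ± 0.43 did not pass the test (adjusted p = 0.113). It did pass without either KDM4E-SCNT library, which enters the shared estimate of spread (adjusted p = 0.0312 and 0.0293, range 0.0291 to 0.273).

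Among the partner proteins, 2 of 5 tested (40%) were called higher in IVF, against 34.9% of all features. RAB3IP, the exchange factor of RAB8, had 49.0, 41.2 and 60.2 FPKM in IVF and 13.2, 19.3 and 9.51 in SCNT, a difference of 1.80 ± 0.37 (adjusted p = 0.00108). RAB3GAP1 and RAB3GAP2 form 1 complex that inactivates RAB3 and is also known as an exchange factor for RAB18. Its 2 subunits did not move together. RAB3GAP2 had 11.2, 11.2 and 11.4 FPKM in IVF and 2.65, 2.15 and 2.41 in SCNT (1.85 ± 0.31, adjusted p = 0.000275). RAB3GAP1, the catalytic subunit, overlapped, with 9.39, 18.8 and 20.1 FPKM in IVF and 11.8, 23.1 and 25.9 in SCNT (-0.31 ± 0.41, adjusted p = 0.528).

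FPKM is per transcript length, so the levels of paralogues can be set side by side within a library. The balance of a pair was the log2(FPKM + 1) of one gene minus that of the other. Of 20 listed pairs, 13 had both genes tested, among them RAB3GAP1 and RAB3GAP2, which are subunits of a complex and not paralogues. In 5 of the 13, that pair included, the balance did not overlap between IVF and SCNT. That number was 8 without IVF replicate 2 and 8 without SCNT replicate 2. For single features, the libraries of those groups did not overlap in 64.4%. Each of the 5 had an exact two-sided permutation p of 0.1, the smallest that 3 against 3 libraries can give, so no pair could pass 0.05.

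The RAB1A minus RAB1B balance moved most. It was 3.48, 4.91 and 3.85 in IVF, 7.30, 6.32 and 7.56 in SCNT, and 6.44 and 4.51 in KDM4E-SCNT. RAB1A was the higher gene in every library, by less in IVF. RAB11A minus RAB11B was 5.41, 7.36 and 5.64 in IVF and 7.57, 9.0 and 8.2 in SCNT, with 6.62 and 6.69 in KDM4E-SCNT. RAB3GAP1 minus RAB3GAP2 was -0.23, 0.70 and 0.76 in IVF and 1.81, 2.93 and 2.98 in SCNT.

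RAB5A minus RAB5B was -0.75, 0.04 and -0.24 in IVF and 0.65, 1.40 and 1.41 in SCNT. By these values RAB5A exceeded RAB5B in all SCNT libraries and in 1 of 3 IVF libraries. The unnamed features described as parts of Rab-5A were left out. They had 0 to 4.46 and 0 to 3.25 FPKM in IVF, and 3.62 to 7.73 and 8.69 to 15.2 in SCNT. The count in IVF may depend on them. The fifth pair, RAB6A minus RAB6B, was 3.96 to 4.36 in IVF and 3.11 to 3.62 in SCNT. RAB6B was at 0.29 to 0.65 FPKM in SCNT, under the pseudocount of 1. With a pseudocount of 0.1 the balance was 4.27 to 4.64 in IVF and 4.24 to 5.18 in SCNT, so this pair overlapped and its mean difference turned from 0.71 to -0.27. RAB27A minus RAB27B overlapped between the groups, at 0.57 to 0.97 in IVF and 0.53 to 1.46 in SCNT.

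**Figure D4:**
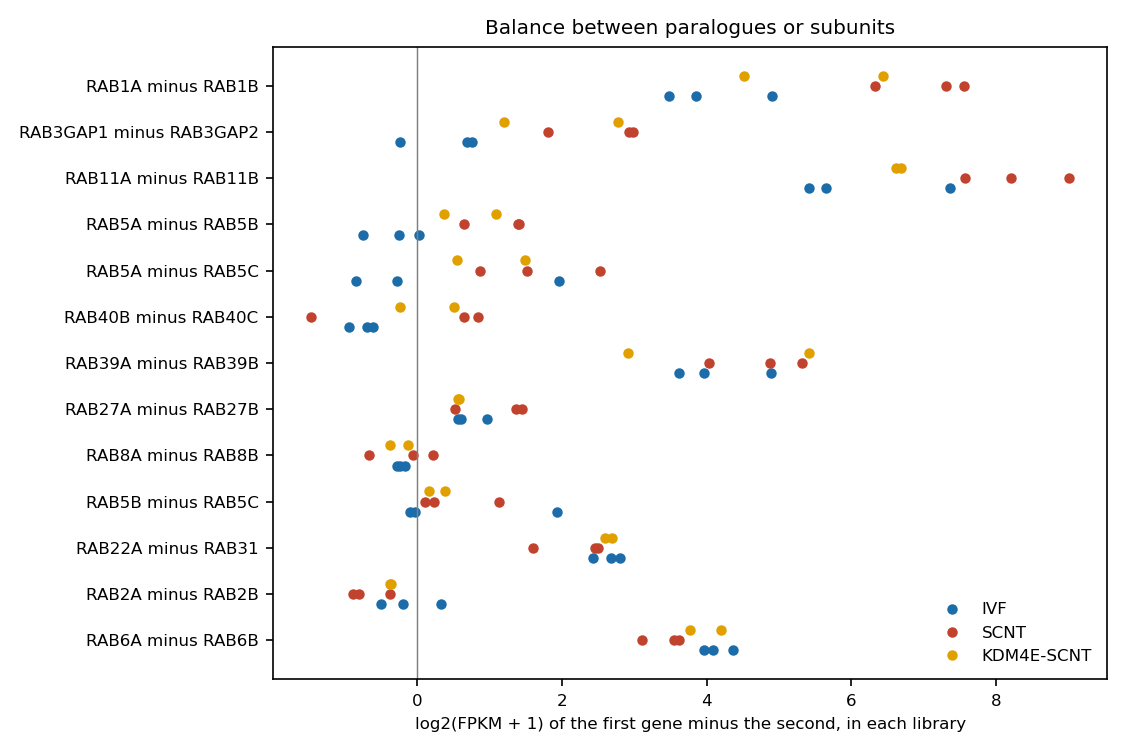
Balance of 13 pairs of paralogues or, for RAB3GAP1 and RAB3GAP2, subunits, as the difference of log2(FPKM + 1) between the genes of a pair. Each point is 1 library, coloured by group. RAB1A minus RAB1B lies between 3.48 and 4.91 in IVF and between 6.32 and 7.56 in SCNT, while RAB8A minus RAB8B overlaps.

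The second comparison asked how clones with KDM4E overexpression differ from clones without it. It uses the same SCNT libraries as the first, so the values of both are given side by side and their likeness is not a result. Of the 47 members, 15 were called higher in KDM4E-SCNT and 2 lower. That is 36.2% called, against 32.6% of all features, with 31.9% higher against 21.6% and 4.26% lower against 11%. The median difference was 0.83 over members and 0.33 over all features. The libraries of the 2 groups were apart for 27 members (59.5% of all features), 22 with every KDM4E-SCNT library higher (38.1%) and 5 with every one lower (21.4%).

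With KDM4E-SCNT replicate 1 as the only library of its group, most of these calls were lost. The difference itself was at least as large for RAB11B (2.18), RAB2A (1.28), RAB2B (0.96) and RAB4A (-1.65). It was smaller for the other members that lost their call, such as RAB18 (-0.36). That fit left out KDM4E-SCNT replicate 2. Without it, 3 members stayed called higher (RAB6A, RAB10 and RAB30) and none lower, when the remaining library is assumed to vary like the other groups. That 0 comes from the same limma fit, and 10.9% of all features were then called. After median-ratio scaling the members split into 10 higher and 4 lower, and higher calls were 43.2% of all calls over the features in place of 66.2%.

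RAB27B had 13.3 and 20.4 FPKM in KDM4E-SCNT against 1.03 to 7.20 in SCNT. Both KDM4E-SCNT libraries were above all SCNT libraries, by 2.40 ± 0.53 (5.27-fold, adjusted p = 0.00589). RAB11B had 12 and 10.3 FPKM against 0.79 to 3.32, a difference of 2.08 ± 0.53 (adjusted p = 0.011). RAB30 had 37.5 and 51.1 FPKM against 9.11 to 11.8 (1.98 ± 0.33, adjusted p = 0.00165). RAB6A had 47.8 and 73.6 FPKM against 12.6 to 19.3 (1.91 ± 0.34, adjusted p = 0.00204). For all 4 genes the groups did not overlap, and without KDM4E-SCNT replicate 2 RAB27B (adjusted p = 0.072, range 0.00131 to 0.072) and RAB11B (adjusted p = 0.0662, range 0.00396 to 0.0662) were no longer called. With KDM4E-SCNT replicate 1 left out instead, RAB11B had an adjusted p of 0.0515.

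By role, 5 of 9 RABs of the endoplasmic reticulum and Golgi were higher (55.6%) and 1 lower (11.1%). Of the secretory RABs, 4 of 9 were higher (44.4%), and of the endosomal RABs, 4 of 12 were higher (33.3%) and 1 lower (8.33%). Over all features, 21.6% were called higher and 11% lower. None of 6 late endosome RABs and none of 6 other RABs passed limma's test in this comparison, where 3 and 1 of them had an unadjusted p under 0.05. RAB32, at 1.82 ± 0.66 (adjusted p = 0.0517), passed under 8 of 21 alternatives, among them the replicate block (1.61, adjusted p = 0.0148), in a range of 0.0131 to 0.493. RAB12 passed as lower under 3 of 21 alternatives, RAB28 as higher under 2, RAB7A and RAB9A as higher under 1 each, and RAB39A as lower under 1. RAB10 had 161 and 183 FPKM in KDM4E-SCNT, above the 58.8 to 72.8 of SCNT (1.39 ± 0.28, adjusted p = 0.00389). RAB2A, with 98.8 and 97.4 FPKM, was 1.27 ± 0.31 higher than SCNT (adjusted p = 0.00863), and RAB2B, with 127 and 125, was 0.95 ± 0.30 higher (adjusted p = 0.0284). The remaining calls were RAB27A, RAB3C, RAB22A, RAB6B, RAB31, RAB35, RAB3GAP2 and RAB3IP, all higher, with differences from 1.07 to 1.86. Several of these calls depended on the setting. RAB31 lost its call under 16 of 20 alternatives, and RAB35 and RAB3IP under 14 of 21. RAB2B lost its call under 10 of 21 and RAB6B under 6 of 20. RAB2A also lost its call after median-ratio scaling (0.80, adjusted p = 0.0707).

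The 2 members called lower were RAB4A and RAB18. RAB4A had 5.84 and 8.33 FPKM in KDM4E-SCNT, below the 10.7 to 31.5 of SCNT (-1.42 ± 0.46, adjusted p = 0.0334, range 0.008 to 0.144). RAB18 had 294 and 93.0 FPKM, so that replicate 1 was just below the lowest SCNT library at 297 and replicate 2 was just below the lowest IVF library at 93.1. Its difference was -1.19 ± 0.42 (adjusted p = 0.0447), and without replicate 2 it was -0.36 with an adjusted p of 0.524, in a range of 0.00364 to 0.524. Neither gene stayed called without SCNT replicate 1 or without SCNT replicate 3, and RAB4A was also lost without either KDM4E-SCNT library and RAB18 without IVF replicate 1 or IVF replicate 3. In all, RAB18 lost its call under 12 of 21 alternatives, among them no filter, pseudocount 0.1, quantile normalization, 1 total per library, only the compared groups, no trend or robust moderation, and the replicate block (adjusted p = 0.0623). RAB4A lost its call under 5 of 21, the fifth being no filter.

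RAB18 was 1 of 12 members for which the KDM4E-SCNT libraries lay at least 1 log2 unit apart. Replicate 2 was higher for 9: RAB1B, RAB3IP, RAB6B, RAB7B, RAB9A, RAB23, RAB25, RAB28 and RAB32. Replicate 1 was higher for RAB18, RAB39A and RAB3GAP1. Over all features, 12.6% were that much higher in replicate 2 and 9% in replicate 1. RAB32 had 5.04 and 23.6 FPKM, RAB9A 46.8 and 103, and RAB39A 61.1 and 15.2. RAB1A, at 233 and 130 FPKM, also had replicate 2 within the IVF range. Replicate 2 had 380 FPKM of fibroblast markers against 89.0 in replicate 1 and 26605 FPKM of oocyte and embryo genes against 22143. The part of either in these gaps was not tested.

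In the comparison of KDM4E-SCNT with IVF, none of the 47 members passed limma's test, where 6.52% of all features did (5.9% higher and 0.62% lower). At an unadjusted p under 0.05 there were 3 members, and limma without trend or robust moderation also called none. The median difference was -0.25 over members and -0.03 over all features. Both KDM4E-SCNT libraries were above all IVF libraries for 3 members, RAB11A (0.68 ± 0.26), RAB5A (0.65 ± 0.30) and RAB3GAP1 (1.14 ± 0.46), where 20% of all features were. Both were below all IVF libraries for 7 members, from -0.96 ± 0.47 for RAB23 to -0.32 ± 0.39 for RAB31, where 13.9% of all features were. Together, 10 members were apart, against 33.9% of all features. Without KDM4E-SCNT replicate 2, RAB18 was called higher than IVF by 1.5 (adjusted p = 0.0243, range 0.0243 to 0.963) and RAB25 lower by -2.04 (adjusted p = 0.0354, range 0.0354 to 0.883).

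The proteins that load, switch off, carry and answer to RABs were counted from 4 lists, chosen by function with earlier results of these data known. The files hold 150 of their genes, and 127 were tested. Of these, 61 were called higher in IVF than in SCNT and 21 lower, or 64.6% against 58.5% of all features. KDM4E-SCNT against SCNT gave 40 higher and 9 lower, or 38.6% against 32.6%, and without KDM4E-SCNT replicate 2 it gave 11 and 0. Without SCNT replicate 3 the counts were 25 and 4, with 15.4% of all features called higher and 7.19% lower. Without SCNT replicate 1 the lower calls were 5, with 6.84% of all features called lower. The share called over all features also fell without KDM4E-SCNT replicate 2.

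The 10 tested genes of prenylation, escort and recycling split in direction, with 2 (20%) higher and 3 (30%) lower in IVF. Over all features, 34.9% were called higher and 23.6% lower. GDI2, which extracts GDP-bound RABs from membranes, had 555, 527 and 627 FPKM in IVF, 211, 191 and 222 in SCNT, and 449 and 552 in KDM4E-SCNT. IVF and SCNT were apart by 1.45 ± 0.23 (adjusted p = 0.000199), and KDM4E-SCNT was 1.26 ± 0.26 above SCNT (adjusted p = 0.00407). RABGGTB, the catalytic subunit of the transferase that prenylates RABs, went the other way, with 69.9, 79.0 and 50.9 FPKM in IVF, 181, 287 and 231 in SCNT, and 92.8 and 76.6 in KDM4E-SCNT. It was -1.79 ± 0.28 lower in IVF than in SCNT (adjusted p = 0.000184) and -1.43 ± 0.32 lower in KDM4E-SCNT than in SCNT (adjusted p = 0.00583, and 0.0548 without KDM4E-SCNT replicate 2, in a range of 0.00203 to 0.0548).

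The escort proteins that present new RABs to that enzyme, CHM and CHML, were also lower in IVF. CHML had 2.01, 3.23 and 3.21 FPKM in IVF and 10.7, 15.1 and 16.3 in SCNT (-1.97 ± 0.32, adjusted p = 0.000241), and CHM differed by -1.33 ± 0.35 (adjusted p = 0.00566). YIPF5, a Golgi membrane protein of the Yip family, was higher in IVF, with 195, 231 and 216 FPKM against 87.5, 89.7 and 101 (1.19 ± 0.24, adjusted p = 0.00114).

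Of 32 tested exchange factor genes, 14 (43.8%) were higher and 7 (21.9%) lower in IVF, near the 34.9% and 23.6% of all features. The largest differences were in 2 subunits of TRAPP, the tethering complex that activates RAB1. TRAPPC13 had 8.16, 16.5 and 12.4 FPKM in IVF, 97.7, 105 and 99.3 in SCNT, and 48.4 and 34.6 in KDM4E-SCNT. TRAPPC4 had 11.03, 7.56 and 13.7 FPKM in IVF, 102, 66.6 and 96.2 in SCNT, and 47.7 and 22.6 in KDM4E-SCNT. For both the 3 groups did not overlap, with KDM4E-SCNT in between. IVF minus SCNT was -2.98 ± 0.31 for TRAPPC13 (adjusted p = 8e-06) and -2.93 ± 0.35 for TRAPPC4 (adjusted p = 2.3e-05).

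WDR41, a partner of C9orf72 in a complex that acts on RABs, had 122, 194 and 131 FPKM in IVF and 23.0, 22.9 and 25.6 in SCNT (2.57 ± 0.30, adjusted p = 1.9e-05). CCZ1, part of the factor that activates RAB7, had 121, 92.7 and 93.9 FPKM in IVF and 20.4, 33.0 and 21.4 in SCNT (2.02 ± 0.31, adjusted p = 0.000133). Both genes were apart between the groups. WDR41 (2.11 ± 0.33, adjusted p = 0.00129) and RABGEF1, an activator of RAB5 (4.47-fold on the FPKM + 1 scale, adjusted p = 0.00248), had the smallest p of this list in KDM4E-SCNT against SCNT. RABGEF1 had 42.2 and 67.3 FPKM in KDM4E-SCNT and 8.84 to 17.0 in SCNT.

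Of 27 tested GTPase-activating protein genes, 14 (51.9%) were higher and 4 (14.8%) lower in IVF, against 34.9% and 23.6% of all features. TBC1D5, which acts on RAB7 with retromer, had 12.5, 12.3 and 8.98 FPKM in IVF and 0.98, 0.54 and 0.74 in SCNT (2.80 ± 0.32, adjusted p = 1.8e-05). TBC1D8 (2.62 ± 0.41), 1 of 2 features with the symbol RABGAP1L (2.13 ± 0.31) and TBC1D7 (1.82 ± 0.29), the last a subunit of the TSC complex, followed by p. In KDM4E-SCNT against SCNT, 13 of the 27 (48.1%) were higher and 2 (7.41%) lower, against 21.6% and 11% of all features. The smallest p belonged to TBC1D5 (2.09 ± 0.36, adjusted p = 0.00182) and TBC1D7 (1.59 ± 0.32, adjusted p = 0.00364). Without KDM4E-SCNT replicate 2 the adjusted p of TBC1D7 was 0.0507, the highest of a range that starts at 0.00224.

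Of 58 tested effector genes, 31 (53.4%) were higher and 7 (12.1%) lower in IVF, against 34.9% and 23.6% of all features. The smallest p belonged to effectors of RAB3 and RAB27. RPH3AL, which binds both, had 19.5, 18.6 and 16.8 FPKM in IVF, 0.98, 1.27 and 0.63 in SCNT, and 7.02 and 13.9 in KDM4E-SCNT. RIMS2, the RAB3 effector of active zones, had 40.2, 45.5 and 44.9 FPKM in IVF, 3.48, 8.1 and 5.0 in SCNT, and 37.4 and 35.1 in KDM4E-SCNT. Both were low in SCNT and did not overlap with either other group, as was also the case for SYTL2, an effector of RAB27 whose IVF libraries had 47.2 to 70.4 FPKM and whose SCNT libraries had 5.30 to 9.95.

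IVF minus SCNT was 3.31 ± 0.34 for RPH3AL (adjusted p = 8e-06), 2.83 ± 0.32 for RIMS2 (adjusted p = 1.5e-05) and 2.77 ± 0.34 for SYTL2 (adjusted p = 2.8e-05). VPS8, part of the CORVET tether that answers to RAB5, ranged from 57.4 to 112 FPKM over the IVF libraries and from 13.1 to 18.0 over the SCNT libraries (2.43 ± 0.32, adjusted p = 4.6e-05). In KDM4E-SCNT against SCNT, RIMS2 was higher by 2.57 ± 0.35 (adjusted p = 0.000785) and RPH3AL by 2.49 ± 0.38 (adjusted p = 0.00117).

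**Figure D5:**
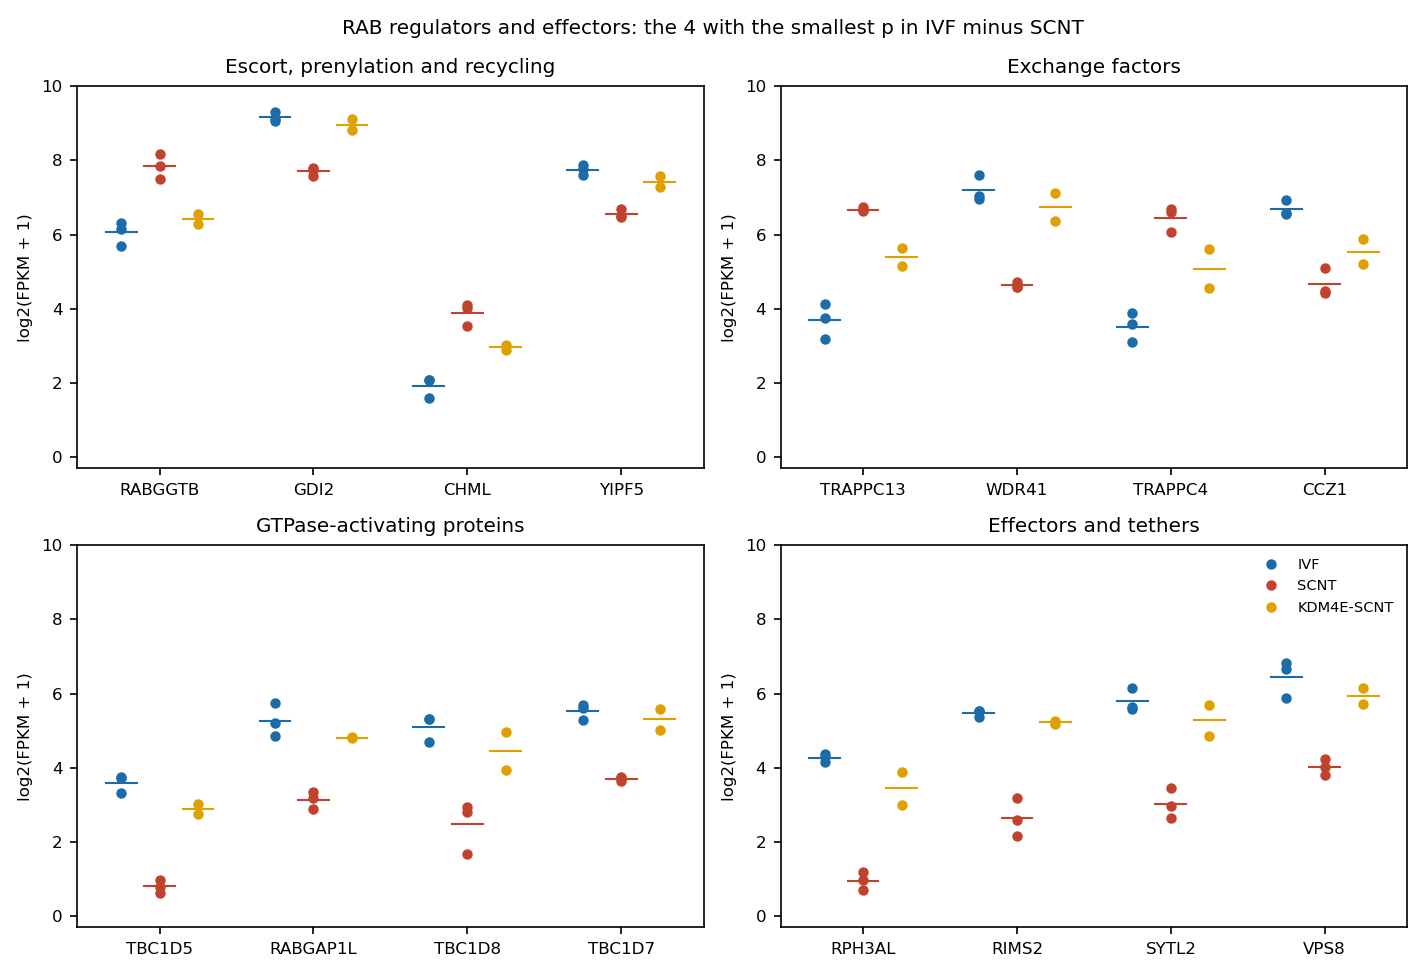
Level as log2(FPKM + 1) of the 4 genes with the smallest p in IVF minus SCNT from each list of RAB regulators and effectors; points are libraries coloured by group and bars are group means. RABGGTB, CHML, TRAPPC13 and TRAPPC4 are lowest in IVF, and the other 12 genes are lowest in SCNT.

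Against IVF, KDM4E-SCNT had 4 of the 127 regulators and effectors called higher and none lower by limma, 3.15% against 6.52% of all features. They were TRAPPC13 (1.70 ± 0.34, adjusted p = 0.00913), TRAPPC4 (1.56 ± 0.39, adjusted p = 0.0312), CHM (1.46 ± 0.39, adjusted p = 0.0428) and GOLGA5 (1.44 ± 0.36, adjusted p = 0.0312), the last a golgin. At an unadjusted p under 0.05 there were 12 of the 127 in either direction. Without KDM4E-SCNT replicate 1 none of the 4 was called, and 2 genes were called when any 1 of the IVF libraries, SCNT replicate 1 or SCNT replicate 3 was left out.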

How the data were processed

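RNA-seq was done on 8 libraries, each from a pool of 8 embryos. The authors deposited FPKM to 2 decimals, per the file headers, and no read counts. The submitters' processing notes list RSEM 1.2.12, Bowtie2 2.2.5, StringTie 1.0.4, HISAT 0.1.6, bcl2fastq 2.16 and build UMD3.1, without roles. Depth and strand are not given in the sources used here.

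Features with at least 1 FPKM in at least 2 libraries were kept (14839 of 21258). They were fitted as log2(FPKM + 1), which understates changes of low genes, with limma 3.58.1 in R 4.3.3 (limma-trend, robust), all 8 libraries in 1 model of group means. P-values are two-sided and adjusted by Benjamini-Hochberg over all features, with calls at an adjusted p under 0.05. Errors are standard errors of differences, or SD of levels.

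The members and the lists of roles, regulators, paralogues and markers were chosen with earlier results of these data known. Values per library are given for the 6 highest members, the largest called differences (up to 6 or 4 per direction), opposed paralogues, the highest member of each role and the regulators with the smallest p. RAB4A and RAB5A met this rule, while RAB5C, RAB7A, RAB3GAP1, RAB3GAP2, CHM and GOLGA5 were added after their values were seen. On simulated data with 200 of 14839 genes changed, the fit for IVF against SCNT found 86% of the 4-fold and 17% of the 2-fold changes, that for KDM4E-SCNT against SCNT 72% and 4%, and that for KDM4E-SCNT against IVF 72% and 2%. Far more of the features were called in the data than were changed in the simulation: 58.5%, 32.6% and 6.52% in the same order. Recovery depends on that share, so the simulated figures do not give the recovery in these data. Alternatives covered the pseudocount, filter, scaling, samples fitted, moderation, replicate block and leaving out libraries. Sequences were not used here.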

Additional observations from a re-analysis of the deposited data

How the results depend on the processing

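No value named here changed direction past the test under the alternatives tried. Of the 25 members called between IVF and SCNT, 22 stayed called under every alternative that tested them. Of the 17 called between KDM4E-SCNT and SCNT, 3 did (RAB6A, RAB10 and RAB30). The cause of these changes was not tested. For IVF minus SCNT, members called lower numbered 3 as reported, 8 after median-ratio scaling, and 5 after upper-quartile scaling and after quantile normalization. Over all features the lower calls were 23.6% as reported, then 29.2%, 25.9% and 26.1% after those settings in order. For KDM4E-SCNT minus SCNT, members called lower numbered 2 as reported, 4 after median-ratio scaling, 1 with pseudocount 0.1, with 1 total per library, with only the compared groups and without trend or robust moderation, and 0 with no filter. Over all features the lower calls there were 11%, then 18.6%, 8.8%, 9.32%, 10.8%, 10.6% and 5.96% in the same order. Regulators and effectors there, 40 higher and 9 lower as reported, were 26 and 15 after median-ratio scaling and 25 and 15 after quantile normalization. Over all features, calls were 21.6% higher and 11% lower as reported. They were 14.1% and 18.6% after median-ratio scaling, and 14.2% and 13.8% after quantile normalization. For KDM4E-SCNT minus IVF, regulators called higher numbered 4 as reported, 2 with pseudocount 5 or no filter and 1 with only the compared groups. In that comparison 1 was called lower with the stricter filter and after quantile normalization. Over all features the higher calls were 5.9%, then 4.25%, 2.86% and 3.4% in that order. The lower calls were 0.894% with the stricter filter and 0.795% after quantile normalization.

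Leaving out 1 library at a time, members called in IVF minus SCNT were 21 to 26 higher and 2 to 4 lower, in KDM4E-SCNT minus SCNT 3 to 17 higher and 0 to 3 lower, and in KDM4E-SCNT minus IVF 0 to 1 in each direction. Regulators and effectors were 51 to 61 higher and 15 to 22 lower, 11 to 41 higher and 0 to 9 lower, and 0 to 4 higher and 0 to 1 lower. With 1 IVF or SCNT library left out, 29.3% to 34.4% of all features were called higher and 20.4% to 22.4% lower in IVF minus SCNT. In KDM4E-SCNT minus SCNT those shares were 15.4% to 23.6% and 6.84% to 12.4%. In KDM4E-SCNT minus IVF they were 4.64% to 5.34% and 0.394% to 1.16%. Pairs with balances apart were 5 to 8, with 8 without IVF replicate 2 and 8 without SCNT replicate 2. Leaving out IVF replicate 2 and SCNT replicate 2 together was chosen after seeing the data. It gave 22 members higher and 4 lower and 50 regulators higher and 17 lower in IVF minus SCNT. In KDM4E-SCNT minus IVF it gave 2 regulators higher. Over all features it gave 32.6% higher and 22% lower in the former comparison and 4.64% higher in the latter.

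Groups share replicate numbers. Libraries with the same number deviated together weakly (r across genes, which are not independent replicates, from 0.006 to 0.123). All such pairs were positive. Pairs with different numbers ranged from -0.134 to 0.134, and most were negative. IVF replicate 3 correlated better with SCNT replicate 1 (0.07) than with SCNT replicate 3 (0.028). These values do not settle whether libraries of the same number share a batch, and the main fit has no block. With the replicate block, members called were 22 higher and 3 lower in IVF minus SCNT, 12 and 1 in KDM4E-SCNT minus SCNT and 0 in KDM4E-SCNT minus IVF, and regulators were 57 and 21, 34 and 7, and 3 and 0. Over all features, the block gave 34.8% higher and 23.5% lower, 19.2% and 9.45%, and 5.91% and 0.539%, in the same order. Depth is unknown, so what it limits cannot be stated.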

Other observations

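The files also hold 8 features with no symbol that are described as a Rab protein, which the choice by symbol left out. The most abundant, described as Rab-21, an endosomal RAB that moves integrins, had 47.6, 47.1 and 67.3 FPKM in IVF, 19.9, 30.7 and 17.6 in SCNT, and 28.6 and 35.0 in KDM4E-SCNT. Its IVF libraries were above all others. The feature described as Rab-4B, a relative of RAB4A, had 6.18, 5.98 and 3.64 FPKM in IVF, 26.1, 19.7 and 16.1 in SCNT, and 15.5 and 8.25 in KDM4E-SCNT, so that the groups did not overlap. These names rest on the best protein match given in the files, and the features were chosen after their values were seen.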
